A study of Caenorhabditis elegans with 24 samples.

Results

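mir-58a and mir-58b are microRNA hairpins of Caenorhabditis elegans, and their mature arms were followed here through embryogenesis. The arms were taken by name, as every entry of the count table whose name starts with cel-miR-58a or cel-miR-58b. This gave 4 arms of the 434 in the table, namely cel-miR-58a-3p, cel-miR-58a-5p, cel-miR-58b-3p and cel-miR-58b-5p, written below without the species prefix. Small RNA libraries came from whole embryos of the wild-type strain N2 at 8 times after the 4-cell stage, of which the early ones were 60, 120, 180 and 225 min and the late ones 270, 330, 410 and 500 min. Each stage had 3 libraries of 50 pooled embryos, taken out of cut adults with a mouth pipette, so no library resolves single embryos or tissues. In such bulk samples, fewer cells that hold a microRNA and less of it per cell cannot be told apart.

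A microRNA gene is transcribed into a hairpin, which is cut into a short duplex of a 5p and a 3p strand. Usually one strand is loaded into an Argonaute protein and represses messenger RNAs that pair with its seed, while the other is degraded. The mir-58 family of worms is related to bantam of Drosophila, a microRNA known there for promoting growth and blocking cell death. In C. elegans the family also includes mir-80, mir-81, mir-82 and the mir-2209 hairpins. Its 3p arms are the guide strands and share a seed, its members act redundantly, and it is known as one of the most abundant families of this animal.

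In the gene annotation of assembly WBcel235 (Ensembl release 115), mir-58a lies on chromosome IV from 3233254 to 3233350 on the plus strand. It is within an intron of the protein-coding gene Y67D8A.2 and overlaps an exon of the non-coding RNA gene Y67D8A.6, both on the same strand. mir-58b lies on chromosome IV from 6660461 to 6660519 on the minus strand. It is outside annotated protein-coding genes, 24 bp from the protein-coding gene C01B10.11 on the plus strand and 115 bp from mir-58c on the minus strand, which is not analysed here.

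The 24 libraries held 9908958 reads in all, between 88482 in 225 min replicate 2 and 1594151 in 410 min replicate 3. miR-58a-3p was the 13th most abundant arm, with 143786 reads over all libraries. It ranked just below miR-235-3p with 234773 reads and just above miR-229-5p with 137025 reads. miR-58a-5p ranked 19th with 59125 reads. miR-58b was near the limit of counting, since miR-58b-5p had 54 reads in 7 of the 24 libraries and miR-58b-3p had 5 reads in 1 library. A filter on low counts left 128 arms for testing, among them 3 of the 4 members, without miR-58b-3p.

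One library of the first stage stood apart for miR-58a-3p. It had 946 reads in 60 min replicate 3, against 70 and 42 reads in 60 min replicates 1 and 2. As markers of RNA from the mother's body or older worms, the 5p arms of let-7, lin-4, mir-48, mir-84 and mir-241 were summed. These are known for timing larval development. Over all libraries, miR-84-5p had 0 reads, let-7-5p had 1, lin-4-5p had 3, miR-241-5p had 46 and miR-48-5p had 1498, so the sum was almost all miR-48-5p. The sum was 38.9, 0 and 519.6 CPM, on the counts-per-million scale of the library total, in the 3 libraries at 60 min. The 120 min libraries had 37.8 to 277, those from 180 to 410 min 76.4 to 328, and those of 500 min 115, 189.8 and 28.6. The part of such RNA in 60 min replicate 3 was not tested, and main values of the 60 min stage are also given without that library, an alternative added after its values were seen.

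miR-58a-3p, the guide arm, was scarce in the first 2 stages, had a first step up at 180 min and was highest at the end. Levels are CPM over library sizes scaled by the trimmed mean of M-values (TMM), given in the order of replicates 1, 2 and 3. They were 787, 429 and 4519 CPM at 60 min and 1791, 1148 and 1590 CPM at 120 min. At 180 min they were 6835, 7651 and 7144 CPM, so every 180 min library was above every earlier one. The next 3 stages had 7673, 12209 and 11405 CPM at 225 min, 12389, 9567 and 13423 CPM at 270 min, and 14638, 7887 and 16480 CPM at 330 min. These stages formed a plateau in which the libraries of neighbouring stages overlapped. The last stages had 32694, 17577 and 28586 CPM at 410 min and 42935, 25437 and 37082 CPM at 500 min. On this scale every 410 min library was above every 330 min library, while those of 410 and 500 min overlapped. As a share of all reads, 410 min replicate 2 (1.54%) was below 330 min replicate 3 (1.60%).

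The mean level of miR-58a-3p over the 3 libraries of a stage (± SD) was 1912 ± 2265 CPM for 60 min, 1510 ± 329 for 120 min, 7210.1 ± 412 for 180 min and 10429 ± 2420.4 for 225 min. For the late stages it was 11793 ± 1996 CPM (270 min), 13002 ± 4524 (330 min), 26286 ± 7817 (410 min) and 35151 ± 8907 (500 min). Without 60 min replicate 3, the 60 min mean was 608 CPM (n = 2). Ordered by mean level, the stages ran 500, 410, 330, 270, 225, 180, 60 and 120 min, and without 60 min replicate 3 the last 2 changed places and did not overlap. Neighbours in that order overlapped in their libraries, except 410 and 330 min, 225 and 180 min, and 180 and 60 min. The margin between 225 and 180 min was narrow, with 7673 CPM as the lowest value at 225 min and 7651 CPM as the highest at 180 min. As shares of all reads these stages overlapped, with 1.06% in 225 min replicate 1 and 1.35% in 180 min replicate 2. As a mean share of all reads, miR-58a-3p took 0.118% in the 60 min libraries (0.0484% without replicate 3), 0.898% in those of 180 min, 1.40% in those of 330 min and 2.38% in those of 500 min. Its rank by share was 26th at 60 min and 10th at 500 min.

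miR-58a-5p, the partner strand, had a smaller and less even increase. Its levels were 1102, 1603 and 2174 CPM at 60 min and 2930.03, 4819 and 1757 CPM at 120 min. They were 6308, 3553 and 5519.7 CPM at 180 min, 8865, 7202 and 5964 CPM at 225 min, and 7077, 6622 and 6389 CPM at 270 min. In CPM the libraries of a stage lay closer together up to 270 min than in the stages that followed. Relative to its level, 120 min also had a wide spread, from 1757 to 4819 CPM. The values were 15075.5, 5999 and 4067 CPM at 330 min, 13999.9, 6594 and 4414 CPM at 410 min, and 11433, 7804 and 1579 CPM at 500 min. In each of these last 3 stages replicate 1 was highest and replicate 3 lowest.

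The mean level of miR-58a-5p over 3 libraries (± SD) was 1626 ± 536 CPM for 60 min, 3169 ± 1545 for 120 min, 5127 ± 1419 for 180 min and 7344 ± 1455 for 225 min. Later means were 6696 ± 350.1 CPM (270 min), 8381 ± 5878 (330 min), 8336 ± 5025 (410 min) and 6939 ± 4984 (500 min). From the highest mean to the lowest, the stages ran 330, 410, 225, 500, 270, 180, 120 and 60 min. Only 270 and 180 min did not overlap among neighbours in that order. Its mean share of all reads was 0.119% at 60 min, 0.958% at 225 min and 0.473% at 500 min. In the first stage this was close to the 0.118% of miR-58a-3p only through replicate 3, without which the shares were 0.117% for miR-58a-5p and 0.0484% for miR-58a-3p. In the last stage it was well below that of miR-58a-3p in its mean.

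**Figure D1:**
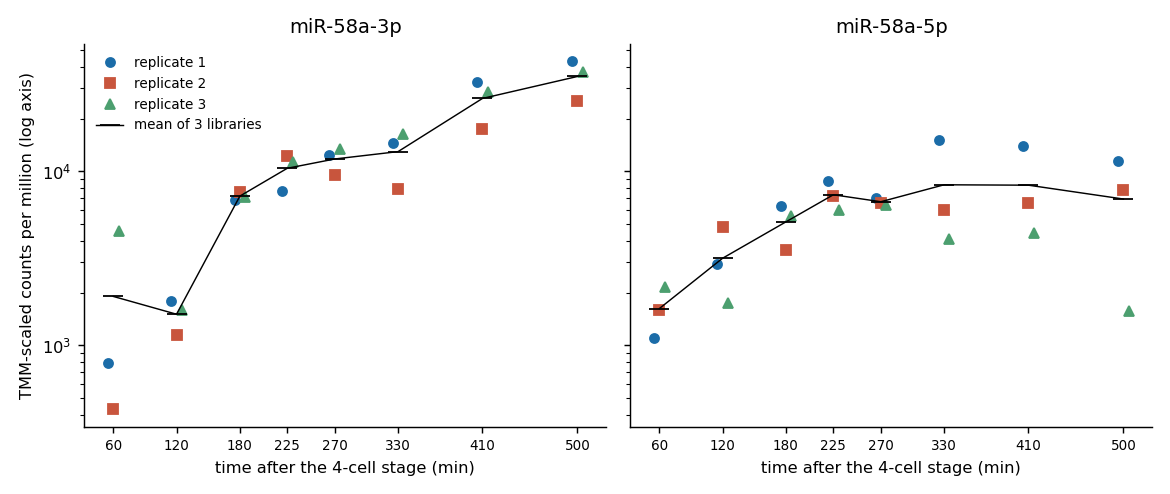
TMM-scaled CPM on a log axis against minutes after the 4-cell stage for miR-58a-3p and miR-58a-5p, with 1 marker per library by replicate number and a line through the stage means. The 3p arm runs up to 25437 to 42935 CPM at 500 min, while the 5p arm spreads between 1579 and 11433 CPM there.

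Differences among the 8 stages were tested with edgeR's quasi-likelihood test, adjusted by the Benjamini-Hochberg method over the 128 arms. They were called at an adjusted p under 0.05 for miR-58a-3p (6.08e-08) and miR-58a-5p (0.0128), and not for miR-58b-5p (0.492). Of all arms tested, 68.0% were called, so 2 of 3 members is near the background. The 5p call was lost without 60 min replicate 1 (0.0609).

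At 500 min miR-58a-3p was 18.3-fold higher than at 60 min, or 4.19 ± 0.60 on the log2 scale (SE; edgeR adjusted p 5.04e-07). None of its libraries overlapped between the 2 stages. Without 60 min replicate 3 the log2 fold change was 5.85. miR-58a-5p was also higher at 500 min, with a log2 fold change of 2.09 ± 0.59 (edgeR adjusted p 0.00327), but its 1579 CPM in 500 min replicate 3 lay inside the range of the 60 min libraries. In this comparison 62.5% of arms were called, 34.4% as higher and 28.1% as lower, and 32.0% were higher with no overlap. The median log2 fold change of all arms was 0.30.

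From 180 min on, miR-58a-3p continued to increase and miR-58a-5p had no call. For 500 min against 180 min, miR-58a-3p had a log2 fold change of 2.29 ± 0.55 (edgeR adjusted p 0.000966) with no overlap. miR-58a-5p had 0.44 ± 0.56 (edgeR adjusted p 0.542), with libraries that overlapped. Here 48.4% of arms were called, 25.8% as higher, 28.9% were higher with no overlap, and the median of all arms was -0.17. Scaled by total counts, the median of all arms was -0.79, and miR-58a-3p had 1.41 and miR-58a-5p -0.30.

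Between neighbouring stages, the step from 120 to 180 min was the only one of 7 in which a member was called. miR-58a-3p was 4.77-fold higher at 180 min than at 120 min, or 2.25 ± 0.55 on the log2 scale (edgeR adjusted p 0.00532), with no overlap. miR-58a-5p had 0.70 ± 0.57 in that step (edgeR adjusted p 0.513). The background was low, with 9.38% of arms called, 7.81% called higher and 10.2% higher with no overlap. Without the filter on low counts the value for miR-58a-3p was 1.63 (adjusted p 0.0733), which is no longer a call.

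In the other 6 steps edgeR called 0 members, and 0 had an unadjusted p under 0.05. DESeq2 called 1, miR-58a-5p at 120 min against 60 min (log2 fold change 1.62, adjusted p 0.0463). Of all arms, 6.25% were called at 120 min against 60 min, 1.56% at 225 min against 180 min, 3.91% at 270 min against 225 min, 1.56% at 330 min against 270 min, 10.9% at 410 min against 330 min and 6.25% at 500 min against 410 min. The lowest unadjusted p was that of miR-58a-3p at 410 min against 330 min, with a log2 fold change of 1.02 ± 0.53 (edgeR adjusted p 0.301). With TMM scaling, its libraries did not overlap in that step, in which 21.1% of arms were higher with no overlap. They did not overlap at 225 min against 180 min either, where 8.59% were higher with no overlap. As shares of all reads they overlapped in both steps. With total counts the log2 fold change of miR-58a-3p at 410 min against 330 min was 0.56. For 120 min against 60 min, miR-58a-3p had -0.35 ± 0.53 (edgeR adjusted p 0.699). That sign rested on 60 min replicate 3, without which the value was 1.31 (adjusted p 0.0549). It was also positive with the size factors of DESeq2 (0.66) or total counts (0.76) in place of TMM.

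The arms of mir-58a changed places during embryogenesis. All libraries of the first 2 stages but 60 min replicate 3 had more 5p reads, and those of the last 2 had mostly 3p reads. The share of 3p reads among the reads of both arms does not depend on library scaling. It is a share of reads, not of molecules. It was 41.7% (exact Clopper-Pearson 95% interval 34.1 to 49.5), 21.1% (15.7 to 27.4) and 67.5% (65.0 to 70.0) in replicates 1, 2 and 3 at 60 min. The 120 min libraries had 37.9% (35.3 to 40.7), 19.2% (17.0 to 21.6) and 47.5% (45.3 to 49.7). The 3p arm therefore had more reads than the 5p arm in 1 of the 6 libraries of these stages, and that was 60 min replicate 3.

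At 180 min the share of 3p reads was 52.0% (50.3 to 53.7), 68.3% (66.2 to 70.3) and 56.4% (55.5 to 57.4). At 225 min it was 46.4% (44.9 to 47.9), 62.9% (60.8 to 65.0) and 65.7% (64.7 to 66.6). At 270 min it was 63.6% (63.0 to 64.2), 59.1% (58.1 to 60.1) and 67.8% (66.8 to 68.7). In these middle stages the 3p arm was ahead in every library but 225 min replicate 1.

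At 330 min the share was 49.3% (48.1 to 50.4), 56.8% (55.1 to 58.5) and 80.2% (79.4 to 81.0). At 410 min it was 70.0% (69.4 to 70.6), 72.7% (71.7 to 73.8) and 86.6% (86.3 to 87.0). At 500 min it was 79.0% (78.4 to 79.5), 76.5% (75.3 to 77.7) and 95.9% (95.5 to 96.3). All 500 min libraries were above all libraries of 60 to 270 min, and replicate 3 was highest in each of these 3 stages. From 180 min on the 3p arm had more reads in 16 of 18 libraries, and over all stages in 17 of 24.

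**Figure D2:**
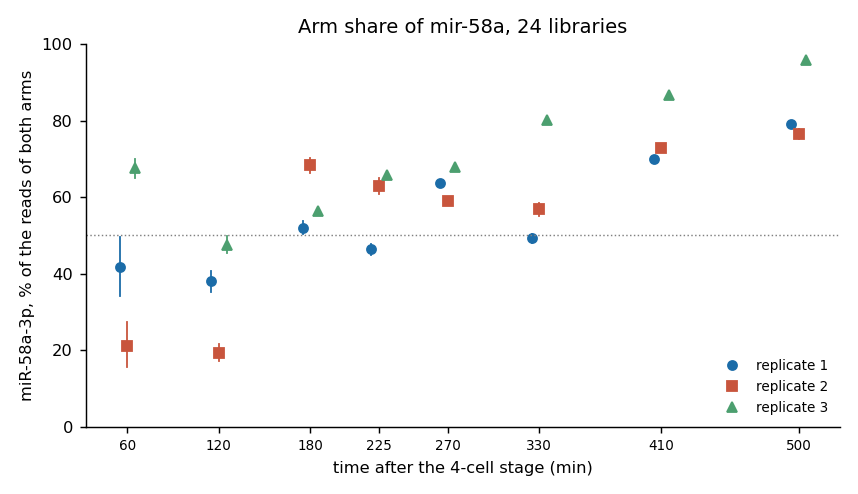
Percentage of miR-58a-3p reads among the reads of both mir-58a arms against minutes after the 4-cell stage, with 1 point per library and its 95% interval, which covers counting error only. Values run between 19.2% and 67.5% at 60 and 120 min and between 76.5% and 95.9% at 500 min.

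The log2 ratio of 3p to 5p reads, with 0.5 reads added to each, averaged -0.44 ± 1.47 (SD, n = 3) for 60 min, -0.97 ± 0.99 for 120 min, 0.53 ± 0.51 for 180 min and 0.50 ± 0.62 for 225 min. Later averages were 0.80 ± 0.27 (270 min), 0.79 ± 1.09 (330 min), 1.78 ± 0.80 (410 min) and 2.72 ± 1.59 (500 min). Without 60 min replicate 3 the 60 min average was -1.19 (n = 2). The difference of means was 3.16 for 500 min against 60 min, 2.19 for 500 min against 180 min and 1.50 for 180 min against 120 min. Libraries did not overlap in any of the 3 comparisons. The two-sided exact permutation p was 0.1 in each, the smallest that 3 libraries against 3 allow. With 1 library left out, the difference for 500 min against 60 min ran between 2.25 (without 500 min replicate 3) and 3.91 (without 60 min replicate 3). It ran between 1.28 (without 500 min replicate 3) and 2.70 (without 500 min replicate 2) for 500 min against 180 min.

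Across the 24 libraries the log2 ratio rose with time, with Pearson's r 0.75 (two-sided permutation p 2e-05, adjusted 6e-05 over 3 relations) and Spearman's rho 0.76 (permutation p 5e-05, adjusted 0.00015). Without any 2 of the 500 min libraries, the farthest from the median time, r was 0.70 to 0.76. Leaving out any single library, 60 min replicate 3 included, gave r of 0.72 to 0.81. The relation held within each replicate number, with 8 libraries each. There r was 0.89 in number 1 (exact permutation p 0.00283), 0.81 in number 2 (0.0157) and 0.89 in number 3 (0.00211), and rho was 0.86, 0.74 and 0.86 (exact permutation p 0.0107, 0.0458 and 0.0107). Over the 18 libraries from 180 min on, r was 0.69 (permutation p 0.00067, adjusted 0.001) and rho 0.69 (permutation p 0.00238, adjusted 0.00357).

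A change in the arm ratio was common among hairpins. In 36 hairpins with both arms tested, the change of the log2 ratio of 3p to 5p was fitted with edgeR's diffSpliceDGE, taking the hairpin as the gene and the arm as the exon. For 500 min against 60 min, mir-58a had a change of 2.10 ± 0.81 (SE, adjusted p 0.0297), which is a call. In that test 44.4% of hairpins were called, 25.0% toward 3p and 19.4% toward 5p. By size of the change mir-58a was 24th of the 36, and the median size was 2.67. The call was lost without 60 min replicate 1 (adjusted p 0.0537), 60 min replicate 2 (0.0948) or 500 min replicate 3 (1.59, adjusted p 0.150), and without 60 min replicate 3 the change was 3.50 (0.00045).

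For 500 min against 180 min mir-58a had a change of 1.85 ± 0.79 (edgeR adjusted p 0.107), which missed the threshold, with 16.7% of hairpins called, 11.1% toward 3p. It passed with limma (2.20, adjusted p 0.0183) and with the replicate number as a block (1.99, adjusted p 0.0351). It also passed without 60 min replicate 3 (adjusted p 0.0342), a library of neither stage, with the change still at 1.85. Without 500 min replicate 3 the change was 1.34 (adjusted p 0.362). Among the relatives, mir-81 changed toward 3p by 3.27 ± 1.14 for 500 min against 60 min (edgeR adjusted p 0.0168) and by 4.44 ± 1.12 for 500 min against 180 min (0.00274). mir-82 did so by 6.10 ± 1.19 (edgeR adjusted p 6.13e-05) and 5.50 ± 1.16 (0.000306). The differences between mir-58a and these hairpins were not tested. Their 5p arms were rare, with 1573 reads of miR-81-5p and 1462 of miR-82-5p over all libraries, against 422651 of miR-81-3p and 1064120 of miR-82-3p.

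**Figure D3:**
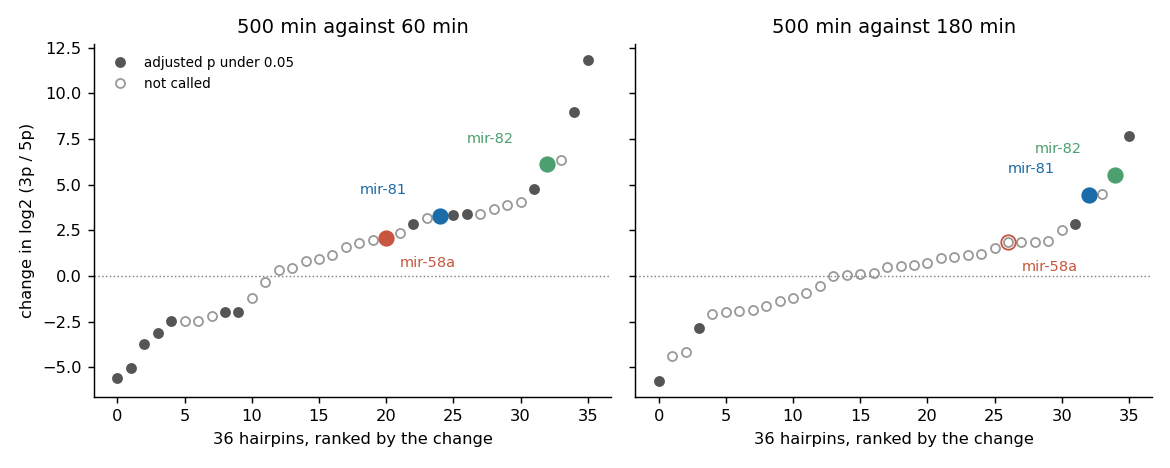
Fitted change of the log2 ratio of 3p to 5p reads in 36 hairpins, ranked, for 500 min against 60 min and 500 min against 180 min, with filled markers for adjusted p under 0.05. mir-58a stands at 2.10 and 1.85, mir-81 at 3.27 and 4.44 and mir-82 at 6.10 and 5.50.

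miR-58a-3p had a course close to that of miR-82-3p and of miR-81-3p, and less close to that of its own 5p arm. By Pearson's r of log2 CPM over the 24 libraries, the arms most like it among 126 were miR-81-3p (0.96), miR-82-3p (0.95), miR-228-5p (0.94), miR-49-5p (0.90) and miR-228-3p (0.87). Its r with miR-58a-5p was 0.63. The arms most like miR-58a-5p were miR-54-3p (0.83), miR-1-5p (0.79), known from muscle, and miR-52-5p (0.72). These values are descriptions, since all arms share the libraries and their scaling. miR-58a-3p, miR-81-3p and miR-82-3p share a seed, and their full sequences were not compared here. How reads that match several arms were counted is not given in the sources used here. Any effect of this on the split among the 3 arms was not tested, so that split is uncertain.

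The ratio of miR-58a-3p to miR-82-3p reads was highest at 120 min, lower and level from 180 to 330 min, and higher again at 410 and 500 min. Its log2 averaged -3.26 ± 0.59 (SD, n = 3) for 60 min, -1.95 ± 0.21 for 120 min, -3.26 ± 0.37 for 180 min and -3.26 ± 0.15 for 225 min. Later averages were -3.29 ± 0.38 (270 min), -3.06 ± 0.15 (330 min), -2.53 ± 0.15 (410 min) and -2.36 ± 0.12 (500 min). Without 60 min replicate 3 the 60 min average of this ratio was -3.57 (n = 2). Libraries did not overlap between 500 and 180 min, where the difference was 0.90, nor between 180 and 120 min, where it was -1.31 (exact permutation p 0.1 each, the smallest possible). They did not overlap between 500 and 60 min either, with a difference of 0.90 (exact permutation p 0.1). Over the 24 libraries the ratio had no called relation with time (r 0.25, permutation p 0.238, adjusted 0.238; rho 0.25, permutation p 0.235, adjusted 0.235). Over the 18 libraries from 180 min on, r was 0.83 (permutation p 3e-05, adjusted 9e-05) and rho 0.75 (permutation p 0.00054, adjusted 0.00162). Without any 2 of the 500 min libraries, that r was 0.76 to 0.79.

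By stage means, the ratio of miR-58a-3p to miR-81-3p was also highest at 120 min. It was also higher at 410 and 500 min than from 180 to 330 min. Unlike for miR-82-3p, the 60 min mean was above those of all stages from 180 min on. The log2 ratio to miR-81-3p averaged -0.90 ± 0.47 (SD, n = 3) for 60 min, 0.21 ± 0.82 for 120 min, -1.66 ± 0.44 for 180 min and -1.87 ± 0.23 for 225 min. Later averages were -1.93 ± 0.03 (270 min), -1.73 ± 0.31 (330 min), -1.37 ± 0.50 (410 min) and -1.28 ± 0.47 (500 min). Libraries did not overlap between 180 and 120 min (difference -1.87, exact permutation p 0.1), and they overlapped between 500 and 180 min (0.38, exact permutation p 0.4). They also overlapped between 500 and 60 min (-0.38, exact permutation p 0.3). Without 60 min replicate 3 the 60 min average was -0.65 (n = 2). Over the 24 libraries r with time was -0.34 (permutation p 0.103, adjusted 0.155) and rho -0.26 (permutation p 0.226, adjusted 0.235). Over the 18 libraries from 180 min on, r was 0.50 (permutation p 0.0312, adjusted 0.0312) and rho 0.50 (permutation p 0.0347, adjusted 0.0347), with r of 0.36 to 0.56 without any 2 of the 500 min libraries.

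Within the replicate numbers, with 8 libraries each over all stages, r of the ratio to miR-82-3p with time was 0.53, 0.29 and -0.11 in numbers 1, 2 and 3 (exact permutation p 0.173, 0.489 and 0.797). For the ratio to miR-81-3p it was -0.24, -0.61 and -0.37 (exact permutation p 0.585, 0.112 and 0.392).

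**Figure D4:**
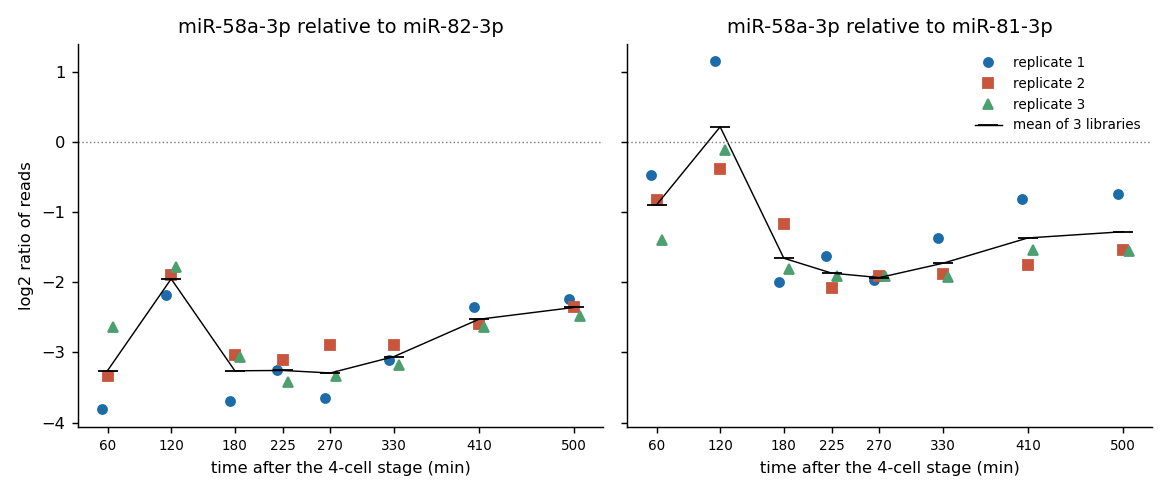
Log2 ratio of miR-58a-3p reads to miR-82-3p reads and to miR-81-3p reads against minutes after the 4-cell stage, with 1 marker per library and a line through the stage means. Both lines peak at 120 min, at -1.95 and 0.21, and end at -2.36 and -1.28 at 500 min.

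Of the mir-58 family, 8 arms were tested, and for 500 min against 60 min 4 were called higher, 2 lower and 2 not. Of all arms, 34.4% were called higher and 28.1% lower. The median log2 fold change was 1.51 for the 8 arms, 0.94 for the 5 outside mir-58a and mir-58b, and 0.30 for all arms. Apart from the mir-58a arms, miR-81-3p (4.20 ± 0.68) and miR-82-3p (3.63 ± 0.51) were higher. miR-82-5p (-2.47 ± 1.09, edgeR adjusted p 0.0478) and miR-2209a-3p (-3.32 ± 0.75, edgeR adjusted p 0.000345) were lower, and miR-81-5p had 0.94 ± 0.97 (edgeR adjusted p 0.399). For 500 min against 180 min, 3 of the 8 were called higher and 3 lower, with a median of -0.16 against -0.17 for all arms, of which 25.8% were called higher and 22.7% lower. Of the 5 arms that do not belong to mir-58a or mir-58b, 2 were then higher (miR-81-3p and miR-82-3p) and 3 lower (miR-81-5p, miR-82-5p and miR-2209a-3p), with a median of -1.99. At 180 min against 120 min, 4 of the 8 were called higher and 0 lower, with a median of 2.56 against 0.13 for all arms, of which 7.81% were called higher and 1.56% lower. The mir-80 arms had 4 reads (3p) and 13 reads (5p) in all libraries.

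mir-58b could not be followed over time at this depth. miR-58b-5p had 6 reads in 60 min replicate 2, 10 in 120 min replicate 1, 7 in 180 min replicate 2, 10 in 270 min replicate 1, 1 in 270 min replicate 2, 13 in 410 min replicate 3 and 7 in 500 min replicate 1. As CPM over the library total without TMM scaling, these ranged between 2.33 (95% Poisson interval 0.0590 to 13.0) in 270 min replicate 2 and 67.9 (27.3 to 139.8) in 180 min replicate 2. The other libraries had 0 reads, including all 6 of 225 and 330 min. A count of 0 was taken to allow up to 3 reads. That is 3.98 CPM of the library total in 180 min replicate 3 and 33.9 in 225 min replicate 2. The 95% Poisson interval used above reaches higher for these libraries, to 4.90 and 41.7 CPM. For 500 min against 60 min the log2 fold change was -1.50 ± 2.24 (edgeR adjusted p 0.565), and it ran between -5.96 and 4.51 when 1 library was left out.

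miR-58b-3p had its 5 reads in 180 min replicate 2, or 48.5 CPM of the library total (95% Poisson interval 15.7 to 113). In the same library miR-58b-5p had 7 reads, so this is the only library with both arms of mir-58b. Elsewhere the count of 0, again taken as up to 3 reads, allows 1.88 CPM of the library total in 410 min replicate 3. In 225 min replicate 2 it allows 33.9 CPM. Summed over all libraries, miR-58b-5p amounted to 5.45 CPM of all reads (95% Poisson interval 4.09 to 7.11) and miR-58b-3p to 0.505 (0.164 to 1.18). miR-58a-5p amounted to 5967 and miR-58a-3p to 14511 on the same scale, so nearly all reads counted for these hairpins were assigned to mir-58a. For mir-58b the 5p arm had more reads than the 3p arm, 54 against 5, whereas for mir-58a the 3p arm did. How reads that match arms of several hairpins were counted is not known, so the split between mir-58a and mir-58b and the arm counts of mir-58b are uncertain as well.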

How the data were processed

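The data are 1 deposited table of read counts per mature miRNA arm, whole numbers that the authors had not normalized, for 24 libraries. RNA was isolated with TRIzol and libraries were built with a TruSeq small RNA kit without any mention of molecular identifiers, per the labels. Bowtie and HTSeq are named in the submitters' processing notes. The sources used here give no versions, build, annotation, use of strand or handling of reads that match several places. Stages follow the labels.

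The analysis used R 4.3.3 and edgeR 4.0.16 (filterByExpr with a minimum count of 10, TMM scaling, robust quasi-likelihood fit with stage as a factor over all 24 libraries; common biological coefficient of variation 0.706). A log2 fold change divided by the root of its F value gave its SE. Ratios, permutation tests (100000 resamples, or exact) and intervals used SciPy 1.17.1. Arm use was tested with diffSpliceDGE. The code was tested on simulated data.

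Alternatives used limma 3.58.1, DESeq2 1.42.0, other scalings, no filter, a replicate block and left-out libraries. Named arms are the 4 members, the mir-58 family, the arms most correlated with miR-58a-3p (5) and miR-58a-5p (3), and neighbours in abundance. These members and lists were chosen with earlier results of these data known. Separate cultures are not mentioned for the samples of a stage, so p-values measure only the spread between these samples. PCR reads are not independent molecules, so intervals and limits from a count of 0 (3 reads) cover counting error only. No 2 replicates looked like 1 library deposited again (lowest chi-square per degree of freedom 20.3).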

Additional observations from a re-analysis of the deposited data

How the results depend on the processing

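Of the mir-58a results, 631 of 636 alternatives that leave out 1 library and 169 of 177 others counted as unchanged. A test counted so if it stayed on its side of the threshold, with direction compared only where a call was made. A difference of mean log2 ratios counted so if it moved by less than the pooled SD. Uncalled values could change sign, as for miR-58a-3p at 120 min against 60 min (-0.35 with TMM, 0.66 with DESeq2 size factors). Leaving out 1 library, the log2 fold change of miR-58a-3p ran 3.72 to 5.85 for 500 min against 60 min, 2.12 to 2.47 for 500 min against 180 min and 2.09 to 2.40 for 180 min against 120 min, and that of miR-58a-5p 1.53 to 2.56 for 500 min against 60 min. All of these stayed called. The adjusted p of miR-58a-5p over the 8 stages ran 0.00249 to 0.0609 and was 0.0676 with no filter. At 120 min against 60 min miR-58a-5p was called with total counts (1.86, adjusted p 0.0313) and DESeq2 (1.62, 0.0463). miR-58a-3p at 180 min against 120 min was not called with no filter (1.63, 0.0733). The arm use change of mir-58a ran 1.59 to 3.50 for 500 min against 60 min and 1.34 to 2.25 for 500 min against 180 min, where limma (2.20, 0.0183) called it. Its edgeR call for 500 min against 60 min was lost without 60 min replicate 1, 60 min replicate 2 or 500 min replicate 3. Over the 18 libraries from 180 min on, r with time was 0.83 (adjusted 9e-05) for the ratio to miR-82-3p and 0.50 (adjusted 0.0312), with its sign reversed, for the ratio to miR-81-3p; the 120 min stage, which these leave out, is the highest of both ratios. The median log2 fold change of all arms for 500 min against 60 min was 0.30 with TMM, and miR-58a-3p stood 3.89 above it. With total counts these were 0.08 and 4.25, and with the size factors of DESeq2 0.59 and 4.31.

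Counts of called arms moved by over 1.5 times as follows. At 120 min against 60 min (8 called) there were 14 with DESeq2 size factors, 16 with total counts, 3 with no filter, 13 with the replicate block, 4 with the compared stages only and 22 with DESeq2. At 180 min against 120 min (12) there were 19 with DESeq2 size factors and 21 with DESeq2. At 225 min against 180 min (2) there were 4 with the replicate block and 1 without the 5 most abundant arms. At 270 min against 225 min (5) there were 3 with no filter and 0 without those 5 arms. At 330 min against 270 min (2) there were 0 with no filter, 0 with the compared stages only and 5 with DESeq2. At 500 min against 410 min (8) there were 5 with DESeq2 size factors and 5 with no filter. Leaving out 1 library, the counts ran 6 to 17, 7 to 15, 1 to 2, 1 to 6, 0 to 5, 7 to 17 (at 410 min against 330 min, 14) and 4 to 8 in the order of the steps, and the hairpins called in arm use for 500 min against 180 min (6) ran 3 to 8. Except where a stage, filter or library was removed, the cause was not tested.

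The labels do not say what a replicate number shares. Over 84 pairs of stages and numbers, deviations from the stage means had a correlation of -0.14 to 0.46 (median 0.094), over 0.1 in 40, against a median of -0.053 for libraries with different numbers. With 3 numbers to choose among, a library correlated best with its own in 54 of 84 cases, a hint from the data that numbers share something. Not every pair was over 0.1, so the numbers were not used as pairs in the reported fit. With the replicate block, miR-58a-3p had 4.43 for 500 min against 60 min, and arm use of mir-58a was 2.64 for 500 min against 60 min. It was 1.99 (adjusted p 0.0351) for 500 min against 180 min, which turns a miss into a call. The relations with time within each replicate number were added after seeing the data. Depth limits mir-58b throughout, and mir-58a most at 60 min, where 2 libraries had 42 and 70 reads of the 3p arm.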
